A study of Mus musculus with 5 samples.

Results

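The DNA examined here was the germline differentially methylated regions of Peg10, Plagl1, Peg13 and Zrsr1, followed through 5 sequencing libraries of mouse embryonic stem cells. The 4 windows span 15.0 kb, or 30 steps of 500 bp out of 5277902 such steps on chromosomes 1 to 19 and X, and each was read together with 10 kb of flank on either side (160 steps in all). In mm9, the build of the files, the Peg10 window is chr6:4696001-4699500, the Plagl1 window chr10:12809501-12812000, the Peg13 window chr15:72636001-72642000 and the Zrsr1 window chr11:22871001-22874000. The gene names came with the windows, and no annotation of mm9 was used here. The loci were chosen by name as regions methylated in the oocyte, with results of the same libraries already known, so the values of 5-methylcytosine (5mC) and 5-hydroxymethylcytosine (5hmC) below are a description with no test.

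There was 1 library of each kind. hMeDIP used 2 µg of an antibody to 5hmC, and MeDIP used 2 µg of an antibody to 5mC, each on sonicated, adaptor-ligated and denatured genomic DNA. MethylCap captured 1 µg of fragmented DNA with 2 µg of a tagged methyl-CpG binding domain protein (His6-GST-MBD), and the eluates at 800 mM and at 600 mM NaCl were sequenced separately. These 4 came from E14 clones of a gene-trap library at passages 11 to 14, whereas the input was DNA of a chromatin sample from TNG-A cells, E14 cells with an EGFP reporter at Nanog. A difference between an enriched library and input therefore cannot be told apart from one between these cells or between these DNA preparations. RNA or cell markers were not measured. All cells grew without feeders in 10% fetal calf serum with leukaemia inhibitory factor. On chromosomes 1 to 19 and X, hMeDIP held 18519740 reads, MeDIP 10442811, the 800 mM eluate 7507520, the 600 mM eluate 10462783 and the input 18676265. The reads carry no parental allele, so methylation of 1 allele and partial methylation of both cannot be told apart.

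Genomic imprinting marks the maternal and the paternal copy of a gene differently in the germ line. At a maternally methylated germline region the oocyte lays down 5mC, the sperm copy stays unmethylated, and after fertilisation the mark is kept through the wave of demethylation by KRAB zinc finger proteins such as ZFP57, which binds a methylated TGCCGC element, together with TRIM28 and the maintenance methyltransferase DNMT1. The gene is then expressed from the paternal copy. TET dioxygenases, which are active in embryonic stem cells, oxidise 5mC to 5hmC. Peg10 is a gene derived from a retrotransposon that the placenta needs, and its region is shared with Sgce, the gene of epsilon-sarcoglycan. Plagl1, also called Zac1, encodes a zinc finger transcription factor that controls embryonic growth genes. Zrsr1 is a retrogene that lies in an intron of Commd1. Peg13 is a non-coding RNA in an intron of Trappc9 that is expressed in brain.

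The start sites of Plagl1 and Zrsr1 are shown for their CpG content, since the methylation that these assays read sits mostly at CpG. Of the 4 genes, 2 were matched by symbol in the RefSeq promoter sequences of GRCm38.p6, each 250 bases before to 50 bases after the start. That build is not the one of the reads, and its coordinates were not placed into the windows. The CpG dinucleotides are in capitals. Plagl1 lies on the plus strand at chr10:13090582-13090881 and Zrsr1 on the plus strand at chr11:22971755-22972054 of that build.
Plagl1: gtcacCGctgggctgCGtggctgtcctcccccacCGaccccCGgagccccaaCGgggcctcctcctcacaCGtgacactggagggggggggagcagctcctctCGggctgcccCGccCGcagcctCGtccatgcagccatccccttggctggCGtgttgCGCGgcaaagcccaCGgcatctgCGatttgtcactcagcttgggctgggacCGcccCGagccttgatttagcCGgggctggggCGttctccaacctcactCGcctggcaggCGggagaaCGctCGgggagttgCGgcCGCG
Zrsr1: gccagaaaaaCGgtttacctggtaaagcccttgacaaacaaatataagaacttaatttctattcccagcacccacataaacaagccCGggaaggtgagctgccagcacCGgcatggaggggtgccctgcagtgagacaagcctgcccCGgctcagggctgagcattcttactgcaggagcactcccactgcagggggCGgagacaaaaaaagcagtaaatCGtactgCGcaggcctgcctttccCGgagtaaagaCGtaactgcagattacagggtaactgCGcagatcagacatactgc
The Plagl1 promoter held 26 CpG and 70.7% G and C, and 16.9% of 32851 promoters of the same length had as many CpG. The Zrsr1 promoter held 10 CpG and 53.0% G and C, which 43.5% of promoters matched or passed, against a median of 7. TGCCGC was searched on both strands (GCGGCA on the other). It was found 1 time in Plagl1, on the minus strand, and not in the 300 bases of Zrsr1. Of all promoters, 11.6% held it.

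The Plagl1 window held the most MethylCap signal per length of the 4. It had 9 hMeDIP reads, 114 MeDIP reads, 255 reads at 800 mM and 915 at 600 mM, against 27 input reads. Scaled to reads per 1000000 of the library (RPM), this was 0.336-fold of input in hMeDIP (exact 95% interval 0.139 to 0.736), 7.55-fold in MeDIP (4.93 to 12.0), 23.5-fold at 800 mM (15.8 to 36.4) and 60.5-fold at 600 mM (41.3 to 92.3). The 5mC assays were thus far above input while the 5hmC antibody was below it, and no interval of a 5mC assay overlapped that of hMeDIP. The median hMeDIP ratio over 946482 windows of 2.5 kb was 0.728, which lies just inside the hMeDIP interval. The hMeDIP ratio was 0.304 with the input of the window and both flanks (0.137 to 0.585), and 0.408 with the median ratio of 10 kb windows set to 1 (0.169 to 0.894). Whether Plagl1 lay below the typical level beyond counting error thus depended on the median used, that of 2.5 kb or of 10 kb windows. No median was computed with the input of window and flanks. The signal was narrow. The single step at chr10:12810501-12811000 held 581 of the 600 mM reads (63.5%, interval 60.3 to 66.6), 132 at 800 mM, 52 in MeDIP and 2 in hMeDIP, against 2 in input. In the 600 mM eluate the middle part of the reads, between the quartiles, covered 362 bp, against 1732 bp for the input reads of the window. With 500 bp more on each side the folds were 0.275 in hMeDIP (0.132 to 0.530), 14.9 at 800 mM and 37.4 at 600 mM.

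At Peg10 the intervals of all 4 enriched libraries overlapped those of Plagl1. Its reads numbered 25 in hMeDIP, 82 in MeDIP, 136 at 800 mM and 680 at 600 mM, against 22 in input. The folds over input were 1.15 in hMeDIP (0.620 to 2.13), 6.67 in MeDIP (4.12 to 11.2), 15.4 at 800 mM (9.76 to 25.3) and 55.2 at 600 mM (36.1 to 88.6). Here the hMeDIP interval included both the input level and the median of 3.5 kb windows, 0.756. The 600 mM signal peaked at chr6:4697501-4698000 with 311 reads (45.7% of the window's, interval 41.9 to 49.6), while 11 of the 25 hMeDIP reads lay nearer the right edge, at chr6:4698501-4699000. MeDIP spread more evenly than MethylCap, with 20, 15 and 19 reads in the consecutive steps from 4697501, where the 600 mM eluate had 311, 177 and 28. Input itself was thin over this window, at 0.522 of its own flanks per length (0.321 to 0.808). With the input of the window and both flanks together, the folds were 0.644 in hMeDIP (0.409 to 0.971), 3.74 in MeDIP, 8.64 at 800 mM and 31.0 at 600 mM. With 500 bp more on each side of the window they were 0.601 in hMeDIP (0.362 to 0.979), 3.12 in MeDIP, 7.41 at 800 mM and 26.0 at 600 mM. The size of the Peg10 folds thus depended on these choices, and hMeDIP lay below input under both, where the window's own input put it at 1.15.

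Zrsr1 had the lowest folds over input in each 5mC assay. The window held 26 hMeDIP reads, 93 MeDIP reads, 74 at 800 mM and 430 at 600 mM, against 32 in input. This gave 0.819-fold in hMeDIP (0.469 to 1.42), 5.20-fold in MeDIP (3.44 to 8.03), 5.75-fold at 800 mM (3.75 to 9.003) and 24.0-fold at 600 mM (16.7 to 35.5). The 800 mM interval lay below those of the other 3 windows, and the MeDIP intervals of all 4 overlapped. The step with the most 5hmC antibody reads was not that of the capture peak. The step at chr11:22872501-22873000 held 3 hMeDIP, 36 MeDIP, 31 800 mM and 255 600 mM reads, against 4 in input. The last step, chr11:22873501-22874000, held 14, 20, 10 and 17, against 7 in input. With 0.5 RPM added, hMeDIP was 1.44-fold over input in this last step. That edge step carried 53.8% of the hMeDIP reads of the window (33.4 to 73.4). Of the 26 hMeDIP reads of the window, 3 were on the plus and 23 on the minus strand, against 17 and 15 in input. With 500 bp more on each side the 600 mM fold was 14.8.

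At Peg13, whose window is the widest, the reads of the 5mC assays gathered in the right part and the median hMeDIP read lay in the left part. There were 27 hMeDIP reads, 196 MeDIP reads, 239 at 800 mM and 698 at 600 mM, against 40 in input. The folds were 0.681 in hMeDIP (0.402 to 1.14), 8.76 in MeDIP (6.21 to 12.6), 14.9 at 800 mM (10.6 to 21.3) and 31.1 at 600 mM (22.6 to 44.0). The step at chr15:72640001-72640500 held 412 of the 600 mM reads (59.0%, interval 55.3 to 62.7), and MeDIP was highest in the next step, with 55 reads. In the step of the 600 mM peak, hMeDIP had 3 reads and input 2. A smaller peak lay at chr15:72637001-72637500 with 5 hMeDIP, 20 MeDIP, 16 800 mM and 25 600 mM reads, against 2 in input. Per length, the 600 mM signal of the 4 windows was 18.6 RPM per kb at Peg10, 34.98 at Plagl1, 11.1 at Peg13 and 13.7 at Zrsr1. Since the windows differ in how much flanking DNA they take in, these levels depend on their borders. With the median ratio of 10 kb windows set to 1, the 800 mM folds were 24.7 at Peg10, 37.8 at Plagl1, 23.9 at Peg13 and 9.25 at Zrsr1.

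**Figure D1:**
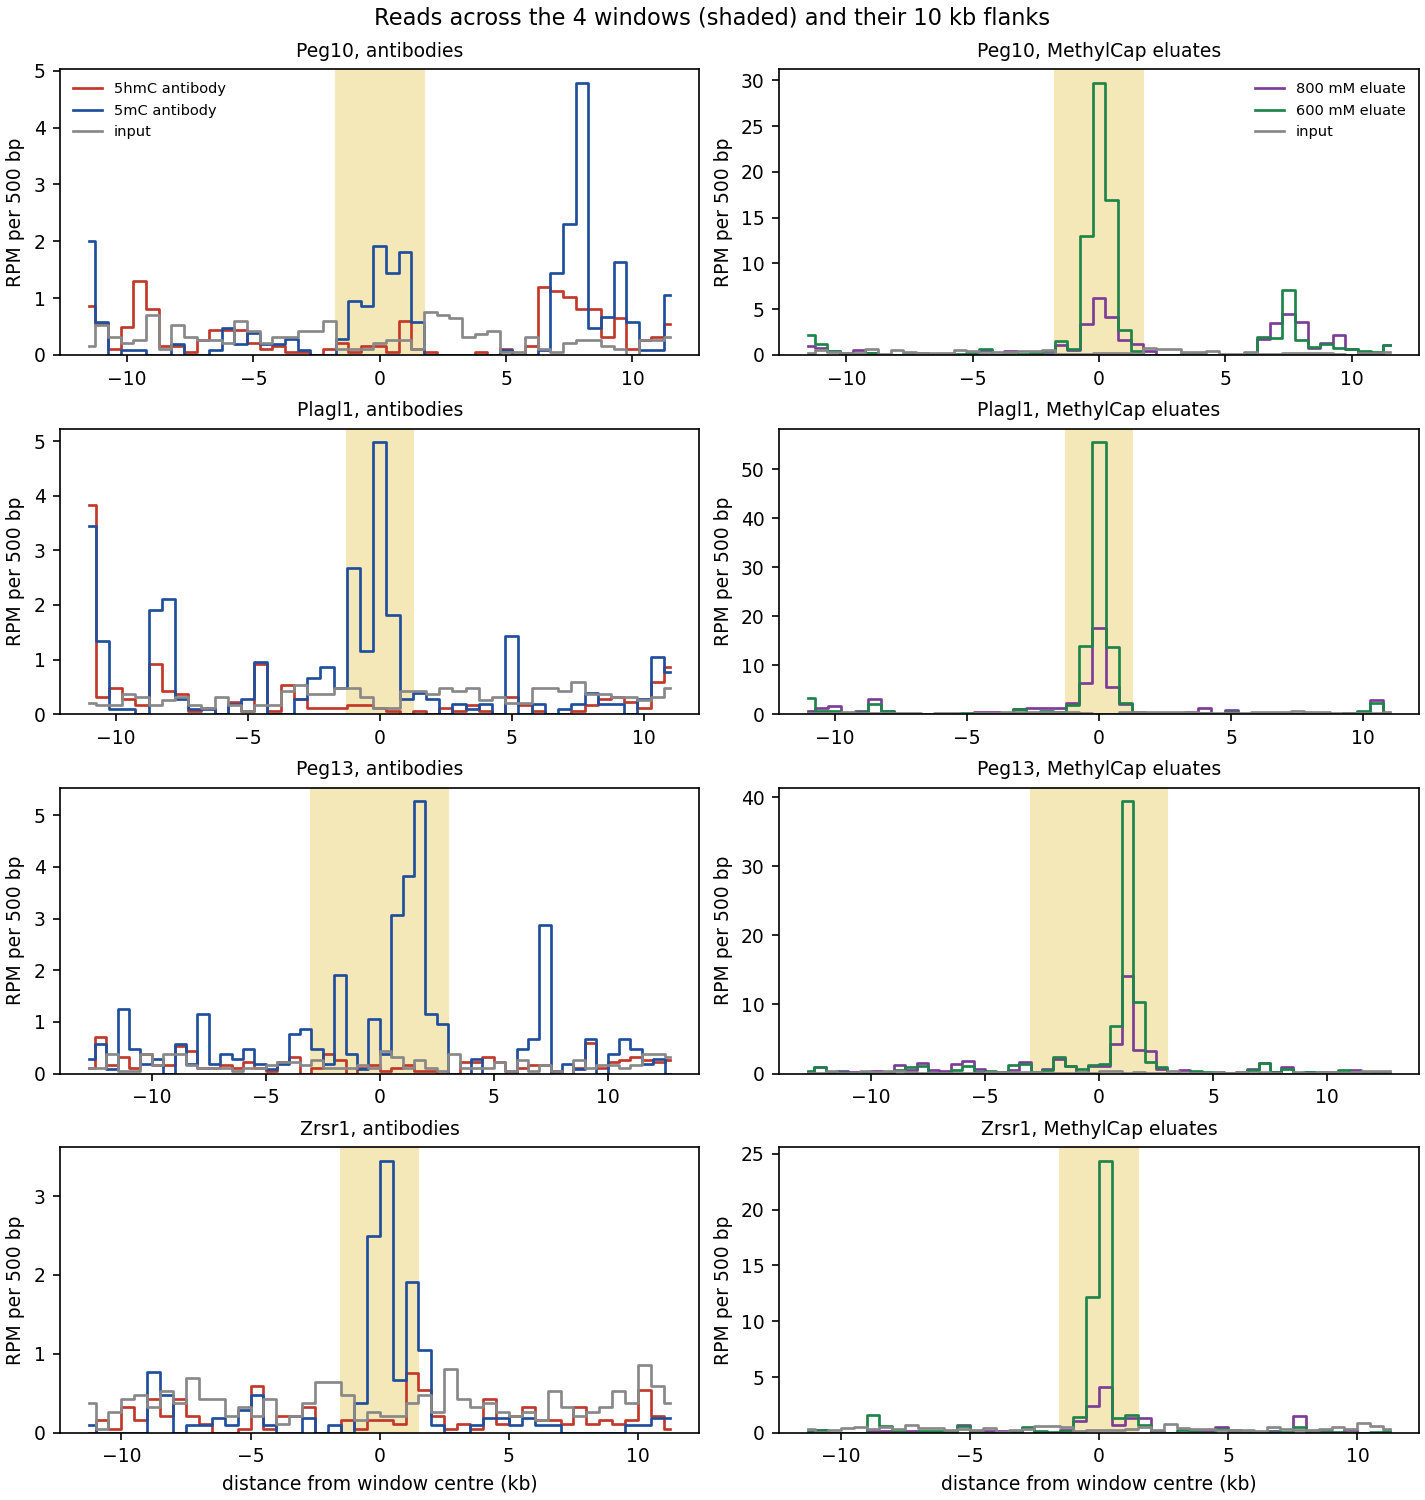
RPM per 500 bp step against distance from the window centre in kb, for the antibodies (left) and the MethylCap eluates (right), with input in grey and the window shaded. The 600 mM peak reaches 55.5 RPM at Plagl1 and 24.4 at Zrsr1, while the 5hmC antibody stays at or below 0.756 RPM in every step of the 4 windows.

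**Figure D2:**
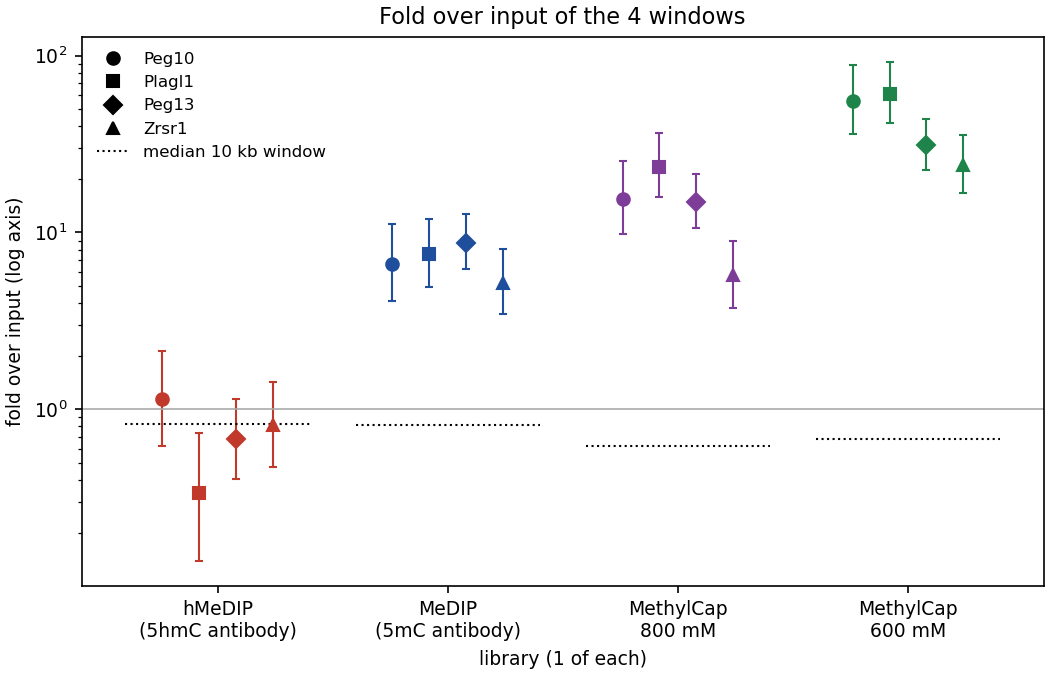
Fold over input of each window on a log axis, by library (1 of each), with exact 95% intervals for counting error and the median of 10 kb autosomal windows as a dotted line. The 12 values of the 5mC assays lie between 5.20 and 60.5, and the 4 hMeDIP values between 0.336 and 1.15.

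Single steps were called where (RPM + 0.5)/(input RPM + 0.5) was 3 or more. Of the 30 steps, 0 were called in hMeDIP, 11 in MeDIP, 13 at 800 mM and 16 at 600 mM. Among the 4767580 steps with a read, 1.11% were called in hMeDIP, 1.44% in MeDIP, 2.59% at 800 mM and 1.75% at 600 mM. The loci were picked with such values known, and a count of 0 in hMeDIP is near its background. The counts depended on the rule, with 19 steps in MeDIP and 25 at 800 mM with 0.1 RPM added, and 4 in MeDIP at 5-fold. Of the 16 steps called at 600 mM, 10 had hMeDIP below input, compared with 6.34% of all 83595 steps called at 600 mM. The call and this comparison use the same input count, so the call favours steps with low input. None of the 16 was called in hMeDIP, compared with 15.0% of those 83595. The 16 steps held 46 hMeDIP and 62 input reads in all, so each comparison with input rests on few reads. Over all 30 steps hMeDIP was below input in 20, close to the 57.7% of steps across the chromosomes. Of the windows themselves, all 4 were at 3-fold or more in MeDIP and in both eluates and none in hMeDIP. Among 3 kb windows with at least 5 input reads, 6.29% reached it in hMeDIP, 7.83% in MeDIP, 10.4% at 800 mM and 9.71% at 600 mM. That is the length of Zrsr1. At the lengths of the other windows the shares were 4.35 to 6.87%, 5.99 to 8.31%, 8.88 to 10.7% and 8.18 to 10.1%, in the same order. None of 4 in hMeDIP is thus near its background.

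The antibodies were then compared directly, which needs no input. The ratio of hMeDIP to MeDIP RPM was 0.0445 at Plagl1 (0.0198 to 0.0875), 0.0777 at Peg13 (0.0499 to 0.117), 0.158 at Zrsr1 (0.0979 to 0.246) and 0.172 at Peg10 (0.105 to 0.272). Plagl1 was the lowest and its interval did not overlap those of Zrsr1 and Peg10, whereas Zrsr1 and Peg10 did not differ beyond counting error. All 4 windows were at 3-fold or more below MeDIP. Among windows with at least 5 input and 10 MeDIP reads, so were 6.67% at 3 kb, the length of Zrsr1, 8.58% at the length of Plagl1, 5.36% at that of Peg10 and 2.29% at that of Peg13. Windows of the same length as low or lower numbered 168 of 377052 for Plagl1 (0.0446%), 87 of 311401 for Peg13 (0.0279%), 2503 of 377384 for Zrsr1 (0.663%) and 2440 of 371443 for Peg10 (0.657%). These windows were not matched on MeDIP reads. Restricted to the steps of each window called at 600 mM, the ratio was 0.0426 at Peg13 (0.0215 to 0.0764) and 0.0546 at Zrsr1 (0.0193 to 0.126). It was 0.0393 at Plagl1 (0.0140 to 0.0892) and 0.188 at Peg10 (0.110 to 0.309). In these steps the intervals of Plagl1 and Zrsr1 thus overlapped. At Zrsr1 the edge step with 14 hMeDIP reads was not among the steps called at 600 mM.

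**Figure D3:**
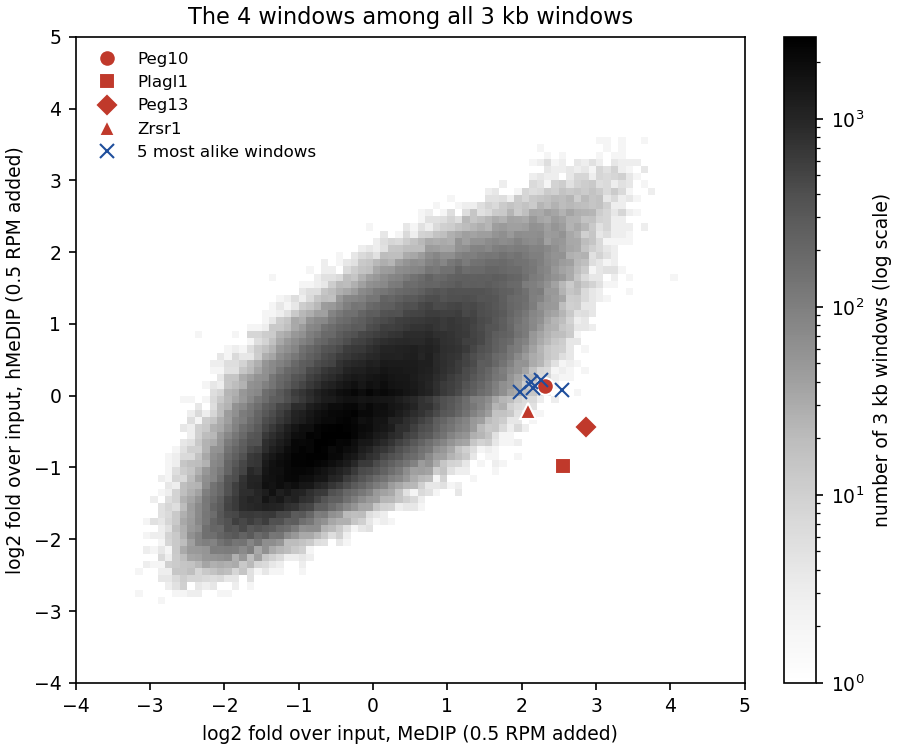
Number of 3 kb windows (grey, log scale) by log2 fold over input in MeDIP (x) and hMeDIP (y), both with 0.5 RPM added, for 757004 windows with at least 10 input reads. The 4 loci (red) lie toward the lower right of the cloud, Plagl1 and Peg13 farthest. On this scale they are at 4.25-fold to 7.29-fold in MeDIP and 0.507-fold to 1.10-fold in hMeDIP. At the MeDIP level of Zrsr1 the cloud also holds windows with lower hMeDIP. The crosses are the 5 windows most like the loci.

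Other DNA with 5mC signal mostly had more hMeDIP reads. Windows at 3-fold or more in both MeDIP and the 600 mM eluate numbered 53406 at the length of Plagl1 and 18359 at that of Peg13. Their median ratio of hMeDIP to MeDIP was 0.618 to 0.675 over the 4 lengths, and the 5th percentile was 0.226 to 0.296, above each of the 4 loci. hMeDIP was below input in 2.61 to 4.22% of them. These windows were picked by folds over the same input count, which favours windows with low input. The share is therefore low in part by the way they were picked. Windows with at least 10 MeDIP reads that matched or passed the 600 mM fold of the locus were few, namely 26 for Peg10, 43 for Plagl1, 39 for Peg13 and 402 for Zrsr1. Among these, 2, 0, 2 and 25 had a ratio of hMeDIP to MeDIP as low as that of the locus. At that level of capture other windows were thus as low as the locus except for Plagl1, and 45 of the 53406 windows above were as low as Plagl1.

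The flanks give a comparison within each library, with no input and no depth total. Per length, the 600 mM signal in the window was 15.4 times that in the flanks at Peg10 (13.3 to 17.9), 44.4 times at Plagl1 (37.5 to 52.7), 15.2 times at Peg13 (12.7 to 18.2) and 34.1 times at Zrsr1 (27.0 to 43.6). For MeDIP it was 2.47 times at Peg10 (1.88 to 3.21), 4.56 at Plagl1 (3.59 to 5.77), 3.96 at Peg13 (3.20 to 4.90) and 10.5 at Zrsr1 (7.50 to 14.8). Zrsr1, with the lowest MeDIP fold over input, was thus the highest in MeDIP against its flanks. With both sides pooled, the flanks of Zrsr1 were below input in every enriched library, at 0.497-fold in hMeDIP, 0.364-fold in MeDIP, 0.437-fold at 800 mM and 0.517-fold at 600 mM. Pooled flanks of the other 3 loci were between 0.996-fold and 2.77-fold. Single sides differed. The left flank of Peg10 was also below input in every enriched library, at 0.676-fold to 0.934-fold. So was the right flank of Plagl1, at 0.465-fold to 0.905-fold, and some of these intervals include 1. The opposite sides were above input, at 1.33-fold to 3.59-fold for Peg10 and 1.76-fold to 2.59-fold for Plagl1. hMeDIP in the window was 0.539 times its flanks at Peg10 (0.343 to 0.814), 0.301 at Plagl1 (0.136 to 0.582), 0.581 at Peg13 (0.371 to 0.878) and 1.21 at Zrsr1 (0.766 to 1.85). Input in the window was 0.522 times its flanks at Peg10 (0.321 to 0.808), 0.893 at Plagl1 (0.576 to 1.33), 1.02 at Peg13 (0.696 to 1.46) and 0.736 at Zrsr1 (0.494 to 1.06). At Peg10 hMeDIP and input were thus lower in the window by about the same factor.

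In the flanks hMeDIP was 0.786 of MeDIP at Peg10 (0.650 to 0.953), 0.674 at Plagl1 (0.556 to 0.817), 0.530 at Peg13 (0.423 to 0.664) and 1.37 at Zrsr1 (1.002 to 1.88). No interval of a window overlapped that of its flanks. The flanks of Peg10, Plagl1 and Peg13 held steps with 5mC signal, while none of the 40 flank steps of Zrsr1 was called in any library. Right of Peg10, the step at chr6:4705001-4705500 held 19 hMeDIP, 24 MeDIP, 34 800 mM and 74 600 mM reads, against 4 in input. At the far left of Plagl1, the step at chr10:12799501-12800000 held 71 hMeDIP, 36 MeDIP, 5 800 mM and 35 600 mM reads, against 4 in input, and it was the only one of the 160 flank steps called in hMeDIP. Both steps thus carried 5hmC antibody reads beside their 5mC signal. Of the 8 flank steps called at 600 mM, those of Peg10 had hMeDIP at 0.721 of MeDIP (0.509 to 1.03) and those of Plagl1 at 0.833 (0.605 to 1.15), against 0.188 (0.110 to 0.309) and 0.0393 (0.0140 to 0.0892) in the steps called inside these windows. Peg13 was the exception. Its 1 such flank step, chr15:72646001-72646500, held 3 hMeDIP and 30 MeDIP reads, a ratio of 0.0564 (0.0110 to 0.181), which overlapped that inside the window, 0.0426 (0.0215 to 0.0764).

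**Figure D4:**
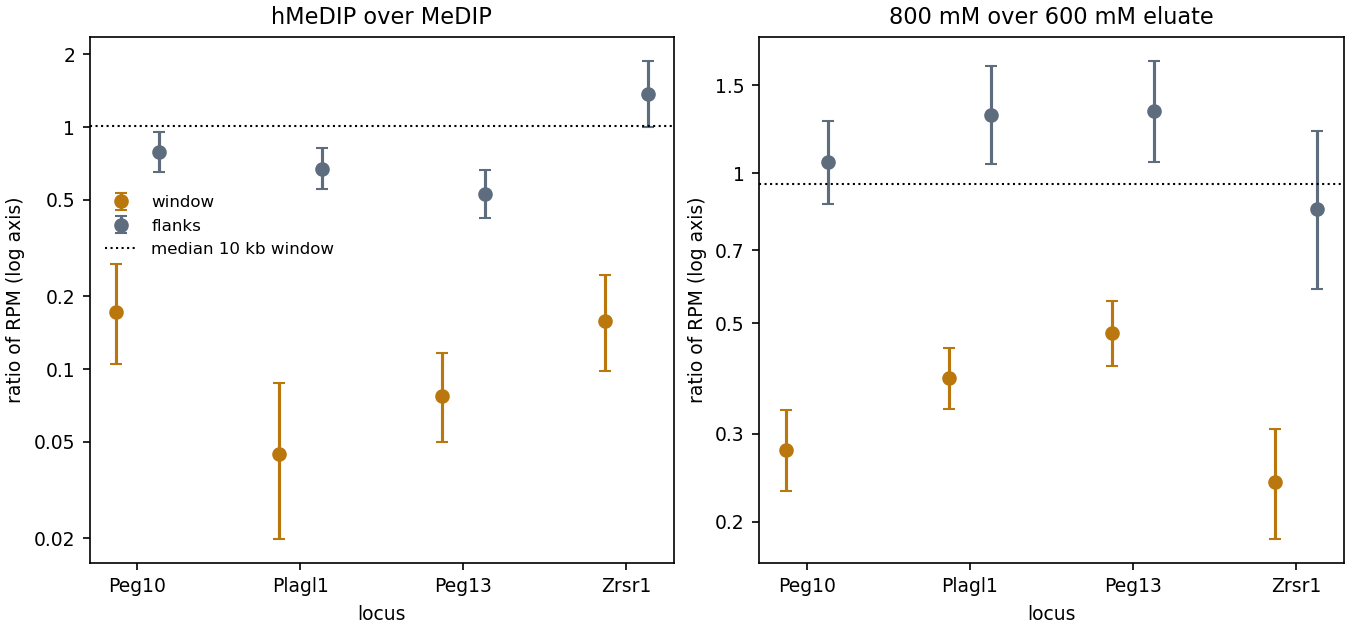
Ratio of RPM on a log axis in each window and in its flanks, for hMeDIP over MeDIP (left) and the 800 mM over the 600 mM eluate (right), with exact 95% intervals and the median of 10 kb autosomal windows as a dotted line. At each locus both ratios are lower in the window, for example 0.158 in the window and 1.37 in the flanks for hMeDIP over MeDIP at Zrsr1.

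Next to the windows the enriched libraries fell below input at several places. In the 2 kb right of Peg10, chr6:4699501-4701500, there were 1 hMeDIP, 0 MeDIP, 5 800 mM and 0 600 mM reads, against 45 in input. With 3 reads put in place of the absent ones, MeDIP was at least 8.39-fold and the 600 mM eluate at least 8.40-fold lower than input there. The 600 mM reads had already fallen inside that window, from 28 in the step before the last to 5 in the last. That last step held 6 MeDIP reads and 2 in input. The first step outside held 0 in MeDIP and 0 at 600 mM, against 14 in input. Input thus rose across this border. Right of Plagl1 the 800 mM eluate had 0 reads in 2 kb against 32 in input, a ratio with an upper bound of 0.304, and 600 mM had 7. On the left of Plagl1 the fall was less steep, with 24 MeDIP, 35 800 mM and 21 600 mM reads against 33 in input. In the 2 kb left of Peg13, 600 mM was 4.34-fold over input (2.27 to 8.74). Its reads there lay mostly in the last 2 steps before the window, with 13 and 14 reads, whereas the first step inside held 2 reads at 600 mM against 5 in input. Around Zrsr1 the sums over 2 kb on either side were below input in every library, at ratios of 0.153 to 0.740, with some intervals that include 1. The first step right of that window was an exception, with 10 hMeDIP, 11 MeDIP, 10 800 mM and 7 600 mM reads, against 9 in input, each above input in RPM.

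The salt steps separated the windows from their surroundings as well. The 800 mM over the 600 mM RPM was 0.240 at Zrsr1 (0.185 to 0.308), 0.279 at Peg10 (0.230 to 0.336), 0.388 at Plagl1 (0.337 to 0.447) and 0.477 at Peg13 (0.410 to 0.553). In the flanks the same ratio was 0.846 at Zrsr1 (0.585 to 1.21), 1.05 at Peg10 (0.866 to 1.27), 1.31 at Plagl1 (1.04 to 1.64) and 1.33 at Peg13 (1.05 to 1.68). All 4 windows thus gave relatively less at 800 mM than their flanks, beyond counting error. Zrsr1 and Peg10 did not differ beyond their intervals, and both were below Plagl1 and Peg13, of which Plagl1 was the lower with intervals that overlapped. This was not rare on the chromosomes. Zrsr1 and Peg10 were at 3-fold or more below 600 mM, as were 5.48% of windows of the length of Zrsr1 and 5.14% of the length of Peg10 with at least 5 input reads and 10 reads at 600 mM, and 2.79 to 9.44% of windows were as low as the 4 loci. The files keep at most 2 reads per position and strand in the eluates and 1 in the antibody libraries. In the top 600 mM step of Plagl1, 552 of 1000 positions and strands held a read and 29 of them held 2, whereas in the top 800 mM step 130 held one. In MeDIP the top steps used between 20 and 55 of 1000. The part of this limit in the ratios was not tested beyond keeping 1 read per position, which left each of the 4 ratios within its interval.

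Within the windows the assays also differed in width. Between the quartiles of read position, MeDIP covered 659 to 1242 bp, the 800 mM eluate 463 to 873 bp and the 600 mM eluate 355 to 640 bp, while input covered 1129 to 2098 bp. At each of the 4 loci the 600 mM eluate was the narrowest and MeDIP the widest of the 5mC assays, at Peg10 wider than input. Their centres were near each other. The median MeDIP read lay at 4697986 on chromosome 6, 12810622 on chromosome 10, 72640318 on chromosome 15 and 22872809 on chromosome 11, and the median 600 mM read at 4697754, 12810753, 72640245 and 22872616. The median hMeDIP read lay elsewhere at Peg10 (4698525), Zrsr1 (22873532) and Peg13 (72637060), toward the borders of these windows. These medians rest on 25, 26 and 27 hMeDIP reads. The median input read lay at 4698355, 22872291 and 72639293 in the same windows, at Peg10 near that of hMeDIP. The step that holds the median hMeDIP read at Peg10 had 19 MeDIP reads, close to the 20 of the highest MeDIP step.

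Lastly, the 3 kb windows whose 4 folds were most like the median of the loci were listed by position, by the Euclidean distance of log2 folds (0.5 RPM added) over the 4 enriched libraries. Among 757004 windows, the nearest was chr11:19920001-19923000 at a distance of 0.614, with 31 hMeDIP, 120 MeDIP, 160 800 mM and 499 600 mM reads, against 29 in input. It was followed by chr11:11925001-11928000 at 0.805, chr2:157386001-157389000 at 0.836, chr5:135906001-135909000 at 0.841 and chr7:81648001-81651000 at 0.953. The loci themselves were at 0.547 for Peg13, 0.575 for Peg10, 1.04 for Plagl1 and 1.56 for Zrsr1. All 5 named windows were thus nearer to the median than Plagl1 and Zrsr1 were, and 30 windows were within the distance of Zrsr1. In the 5 named windows hMeDIP stood at 1.04-fold to 1.16-fold and the 600 mM signal at 19.4-fold to 46.5-fold over input on this scale. The windows were chosen by these same folds, so values near those of the loci follow from the choice.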

How the data were processed

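The deposited files list reads, with 1 aligned 35 bp read per line and its mm9 position and strand. The submitters' processing notes name BWA 0.5.8 and mm9. Column 5 as deposited holds a count, 1 in every line. Column 4 as deposited holds 0 or 1, with a meaning not given here.

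Reads were assigned by their midpoint to windows and 500 bp steps, with the total on chromosomes 1 to 19 and X as depth (Python 3.11.15, numpy 2.4.6, SciPy 1.17.1). Ratios are of RPM, with exact 95% intervals (Clopper-Pearson on the conditional binomial). Counting error is all that the intervals include, as PCR copies carry no molecular identifiers. Each group is 1 library, so nothing was tested between groups. The typical ratio to input is below 1: its median over 234796 autosomal 10 kb windows was 0.824 in hMeDIP, 0.811 in MeDIP, 0.622 at 800 mM and 0.681 at 600 mM. Background shares are of all non-overlapping windows or of steps with a read. The 3-fold call and the interval of the ratio to input were tested on simulated 3 kb windows with at least 5 input reads. The simulated counts held counting error alone (Poisson), so variation between libraries and the limit on reads per position were not covered. The step calls and the ratios between enriched libraries were not simulated.

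The members, lists and thresholds were chosen with earlier results of these data known. By rule all 4 members were named, and the 5 most similar windows by position. Alternatives were reads with 0 in column 4, a shifted read position, wider windows, other scaling, other flanks, pseudocounts and thresholds and, chosen after seeing the data, 1 read per position and only the steps called at 600 mM.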

Additional observations from a re-analysis of the deposited data

How the results depend on the processing

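Across 232 recomputed values, 212 stayed within their interval (counts and shares within 1.5 times), but 20 of them are the same by construction, and 20 moved further. No ratio whose interval excluded 1 turned direction, while hMeDIP over input at Peg10 fell below 1 under 2 settings, with wider windows and, at 0.644, with the input of window and flanks. None moved with only the reads at 0 in column 4 (48 values, 12 the same by construction), reads placed 100 bp downstream of the 5' end (44), at least 10 input reads (24), or 1 read per position and strand (20, 8 the same by construction, chosen after seeing the data). Windows wider by 500 bp on each side gave folds over input of 0.601 in hMeDIP, 3.12 in MeDIP, 7.41 at 800 mM and 26.0 at 600 mM at Peg10, 14.9 at 800 mM and 37.4 at 600 mM at Plagl1, and 14.8 at 600 mM at Zrsr1. With the input of the window and both flanks, Peg10 was at 3.74 in MeDIP, 8.64 at 800 mM and 31.0 at 600 mM. With the median ratio set to 1, 800 mM was 37.8 at Plagl1, 23.9 at Peg13, 9.25 at Zrsr1 and, within its interval, 24.7 at Peg10, and 600 mM was 45.7 at Peg13. Without the nearest 2 kb of flank, the Peg10 window was 12.8 times its flanks at 600 mM, compared with 15.4 otherwise. In the steps called at 600 mM, a choice made after seeing the data, hMeDIP over MeDIP was 0.0426 at Peg13 and 0.0546 at Zrsr1. With 0.1 RPM added, 19 window steps were called in MeDIP and 25 at 800 mM, and at 5-fold 4 were called in MeDIP. The cause of each shift beyond the changed setting was not tested. No paired analysis was possible because each group has 1 library. hMeDIP counts of 9 to 27 reads per window limit what can be said about differences in 5hmC between the loci.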

Other observations

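Reads of both strands were about even in the 600 mM eluate, with 351 plus and 329 minus reads at Peg10 and 216 and 214 at Zrsr1. hMeDIP at Zrsr1 had 3 plus and 23 minus reads, and MeDIP at Plagl1 had 42 plus and 72 minus reads. Input had 17 plus and 15 minus reads at Zrsr1 and 16 and 11 at Plagl1. These counts were picked out after the values were seen, and no reason for them was tested.

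Left of Peg10, the step at chr6:4688001-4688500 held 24 hMeDIP reads, 1 MeDIP read, 4 reads at 800 mM and 0 at 600 mM, against 5 in input. It lies outside the window and was also noticed after the values were seen.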
